A study of Mus musculus with 39 samples.

Results

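The samples described here are the 9 liver arrays from the first day of phenobarbital treatment, out of 39 arrays in the series. They were chosen by their labels alone, as the 5 arrays marked treated and the 4 marked control at 1 day. All hold total RNA of whole liver from male B6C3F1/Crl mice, a cross of C57BL/6 fathers and C3H/He mothers. The mice were 29 to 32 days old on delivery and had 5 days to settle, so both groups were young animals. Treated mice took phenobarbital at 0.05% (w/v) in their drinking water for 1 day, and the labels call the others controls without naming what they drank. The remaining arrays, of 7, 28 and 91 days, served to estimate the spread of each gene and to set the early effect against the later ones. Whether every array represents its own animal is not stated in the labels. The p-values below therefore reflect only how the arrays scatter within groups, which may be technical. This scatter was pooled over all 39 arrays. Where day 1 controls spread widely, the standard errors can understate the scatter at day 1.

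Phenobarbital is the classical activator of the constitutive androstane receptor, CAR, a nuclear receptor encoded by Nr1i3. It acts by an indirect route in which signalling from the epidermal growth factor receptor is blocked, and CAR then enters the nucleus and switches on genes of drug oxidation, conjugation and export. In rodent liver the drug also causes a passing wave of hepatocyte division and enlargement of the organ, and with long exposure it promotes tumours. The cytochromes P450 and the cell-cycle genes are the best known part of that response, and the account below is mainly about the other genes.

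Values are log2 signals as deposited, and each difference is the treated mean minus the control mean in log2 units, given with its standard error (SE). Each gene was represented by its brightest probe set, and 12580 genes were tested by limma with Benjamini-Hochberg adjustment. A gene is called higher or lower where the adjusted p was under 0.05. The median difference over all tested genes was 0.01. Among all tested genes 15.8% were called higher and 16.7% lower, and these shares are the background for every list below. Higher genes were 48.5% of all calls, but 62.4% after quantile normalization and 63% with arrays median-centred. Called changes of at least 2-fold were rarer, at 1.03% of genes upward and 0.461% downward. Treated arrays lay above all controls in 12.8% of genes and below all controls in 13.1%. Most of the early response was therefore of small size and spread over many genes.

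Replicate arrays correlated (Pearson, over all probe sets) at 0.993 to 0.996 in controls and 0.991 to 0.996 in treated arrays. The hepatocyte markers, such as albumin (Alb), had list means of 14.20 to 14.25 in controls and 14.18 to 14.21 in treated arrays, and 1 of 9 was lower. Of 15 Kupffer cell and macrophage markers 1 was lower, of 15 endothelial markers 3 were lower, and of 15 stellate cell markers 1 was higher and 2 were lower. The 12 exocrine pancreas markers averaged 10.49 in treated replicate 3, 5.96 to 6.17 in the other treated arrays and 5.79 to 5.84 in controls. Every treated array thus lay above every control for this mean. The mean includes Pnliprp1, which by itself lay above every control in every treated array, as given below. It therefore does not show that the other pancreas markers were raised outside treated replicate 3. Array means were 6.25 to 6.26 in controls and 6.23 to 6.25 in treated arrays with no overlap. Signals of 18 hybridization spike-ins averaged 10.91 to 10.97 in controls and 10.55 to 10.85 in treated arrays. The difference between 3' and 5' probe sets of control transcripts, a sign of RNA integrity, was 0.46 to 0.58 in controls and 0.40 to 0.51 in treated arrays. The part of these differences in the results was not tested beyond the covariate counts given below. In bulk liver a smaller number of cells of a type and less RNA per cell cannot be told apart.

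**Figure D1:**
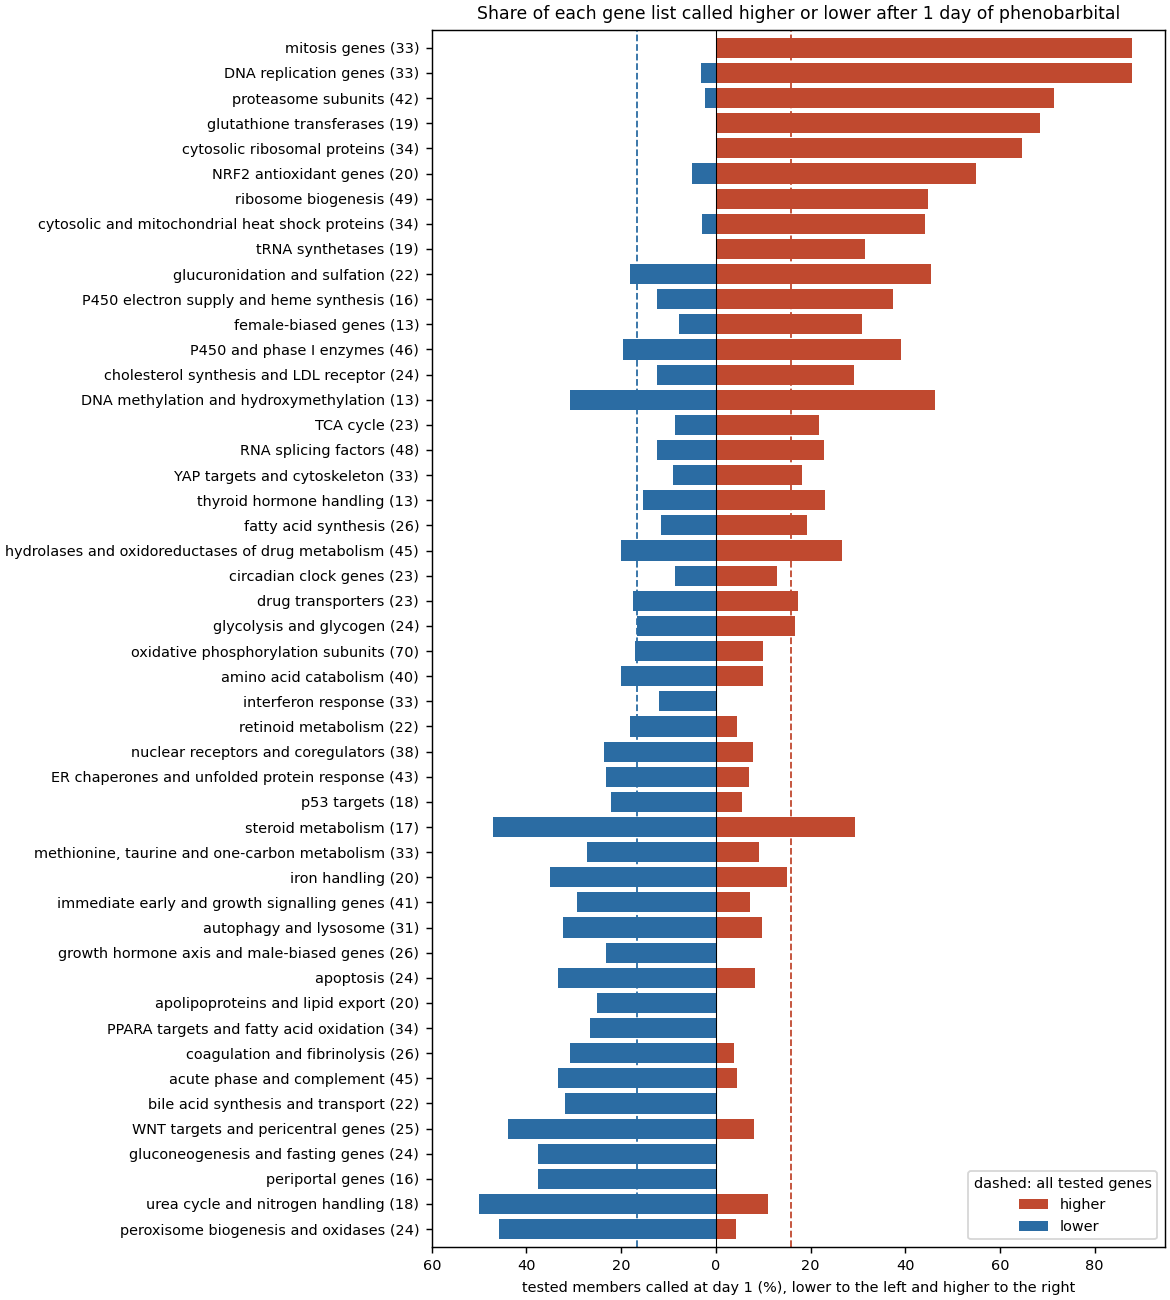
Share of the tested members of each gene list that was called higher (red, right) or lower (blue, left) after 1 day, in percent, with the number tested in brackets and dashed lines at 15.8% and 16.7% for all tested genes. Cell-cycle lists, proteasome subunits, glutathione transferases and ribosomal proteins lie far to the right, and urea cycle, steroid metabolism and peroxisome genes reach farthest to the left.

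The classical targets serve as the check of exposure. Cyp2b10, the main CAR target, was at 7.35 to 8.37 in controls and at 13.97 to 14.21 in treated arrays, and Cyp2c55 at 9.14 to 10.83 and 13.90 to 13.99. All 5 treated arrays were thus alike and far from the controls. Cyp3a11, which is also under PXR control, rose by 0.12 (SE 0.04, adjusted p = 0.00853) with overlap, from signals above 14 in both groups, and did not pass without control replicate 3 (adjusted p = 0.0601). The proliferation marker Mki67 was at 8.82 to 9.03 in controls 1 to 3 and at 6.76 in control 4, and at 9.36 to 10.18 in treated arrays. Without control replicate 4 the difference in Mki67 was 0.86 (adjusted p = 0.0686). In that setting 17 of 33 mitosis genes were higher with a median of 0.71, against 29 and 1.15 with all arrays.

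The largest rises outside the P450s and cell-cycle lists were in genes of conjugation, haem synthesis and several genes with no known part in drug metabolism. Sult3a1, a sulfotransferase with higher expression in female than male mouse liver, was at 5.82, 7.20, 7.58 and 3.82 in controls and at 8.98, 8.64, 10.47, 10.26 and 10.06 in treated arrays. Every treated array lay above every control, by 3.57 on average (SE 0.60, adjusted p = 2.59e-05), but the controls differed among themselves by more than 3 units. Prom1, which encodes the membrane protein prominin-1, was at 6.84, 8.91, 8.42 and 6.82 in controls and at 10.11 to 10.67 in treated arrays. Its difference was 2.55 (SE 0.39, adjusted p = 7.95e-06), again with no overlap. Prom1 is often used as a marker of bile duct and progenitor cells, and it was the only one of 5 tested cholangiocyte markers that rose. The unnamed transcript 1700067K01Rik had a control mean of 5.58 ± 0.39 (SD, n = 4) and a treated mean of 8.09 ± 0.17 (SD, n = 5), and was 5.70-fold higher (SE 0.18 in log2 units, adjusted p = 1.26e-12). The controls of this transcript were tighter than those of Sult3a1 and Prom1.

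Cnmd, which encodes chondromodulin, a cartilage glycoprotein, rose by 2.16 (SE 0.17, adjusted p = 2.63e-11), and the secreted phospholipase gene Pla2g12a by 1.58 (SE 0.13, adjusted p = 2.67e-11). Lratd1 rose by 1.69 (SE 0.31, adjusted p = 0.000103) and 1810053B23Rik by 1.70 (SE 0.41, adjusted p = 0.00176). Pnliprp1, a lipase gene of the exocrine pancreas, rose by 2.16 (SE 0.39, adjusted p = 6.01e-05). It was at 10.11 in treated replicate 3, the array with high pancreas markers, but also at 6.99 to 7.43 in the other 4 treated arrays against 4.91 to 6.29 in controls. The rise was therefore not limited to that array. Pbk, a mitotic kinase, and Esco2, which acetylates cohesin during replication and had 1 of 2 probe sets called, rose by 2.11 (SE 0.31, adjusted p = 3.93e-06) and 1.65 (SE 0.42, adjusted p = 0.00256) and belong to the cell-cycle wave although the lists used here did not hold them.

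Glutathione transferases, which couple reactive compounds to glutathione, were the conjugation family that rose most evenly. Of 19 tested members 13 were higher and 0 lower, with a median difference of 0.59. Gstm2 was at 10.39 to 10.91 in controls and 11.93 to 12.16 in treated arrays, a difference of 1.42 (SE 0.18, adjusted p = 3.25e-07), and Gstm4 rose by 1.36 (SE 0.12, adjusted p = 2.67e-10). Both groups were tight and far apart for these mu-class genes. The theta-class gene Gstt3 rose by 2.39 (SE 0.20, adjusted p = 1.01e-10), whereas Gstt1 rose by 0.59 (SE 0.08, adjusted p = 9.44e-07) from a level already at 12.48 ± 0.19 (SD, n = 4). Probe sets of near-identical Gstm genes can share target transcripts, so the size of each single change is uncertain.

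Glucuronidation and sulfation genes moved in both directions. Of 22 tested 10 were higher and 4 lower, with a median of 0.24. The enzymes that make the donor molecules rose: Ugdh, which makes UDP-glucuronic acid, by 0.92 (SE 0.08, adjusted p = 4.27e-10), and Papss2, which makes the sulfate donor PAPS, by 0.82 (SE 0.11, adjusted p = 1.19e-06). Among the transferases Ugt2b34 rose by 0.59 (SE 0.06, adjusted p = 2.45e-08) and Ugt2b35 by 0.57 (SE 0.10, adjusted p = 3.2e-05). Ugt3a1, an enzyme that uses other sugar donors, fell by 1.00 (SE 0.24, adjusted p = 0.00128).

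Hydrolases and oxidoreductases of drug metabolism were split as well, with 12 of 45 higher and 9 lower (14 and 5 with arrays median-centred). The carboxylesterase Ces2a rose by 1.15 (SE 0.12, adjusted p = 1.38e-08), the carbonyl reductase Cbr1 by 1.02 (SE 0.10, adjusted p = 1.09e-09), the aldo-keto reductase Akr1c19 by 1.02 (SE 0.10, adjusted p = 1.82e-09) and microsomal epoxide hydrolase Ephx1 by 0.92 (SE 0.10, adjusted p = 4.04e-08). These 4 enzymes act on esters, carbonyls and epoxides. The alcohol dehydrogenase Adh4 fell by 0.73 (SE 0.08, adjusted p = 6.72e-08) and the aldehyde oxidase Aox3 by 0.85 (SE 0.17, adjusted p = 0.000281). All 6 had treated arrays entirely on 1 side of the controls.

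Haem is the cofactor of every P450, and Alas1 encodes the enzyme that starts and limits its synthesis. Alas1 was at 10.41, 11.68, 10.70 and 9.23 in controls and at 12.59, 12.53, 13.13, 13.11 and 13.10 in treated arrays. It was 5.23-fold higher without overlap (log2 difference 2.39, SE 0.45, adjusted p = 0.000126), and the controls spread far more widely than the treated arrays. The next steps did not follow in a uniform way: Alad rose by 0.23 (SE 0.07, adjusted p = 0.0083), though the mean of its probe sets was not called (0.13, adjusted p = 0.485), while Cpox, which acts late in the pathway, fell by 0.65 (SE 0.15, adjusted p = 0.000879). Cyb5a, the cytochrome that passes electrons to P450s, rose by 0.19 (SE 0.03, adjusted p = 1.26e-05), and the biliverdin reductase Blvra, which acts in haem breakdown, by 0.29 (SE 0.06, adjusted p = 0.000509). In the list of haem synthesis and electron supply 6 of 16 were higher and 2 lower, with a median of 0.14.

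Among drug transporters 4 of 23 were higher and 4 lower, close to the background in number. The 2 largest rises were in efflux pumps of the sinusoidal membrane. Abcc3 was at 10.14, 9.48, 8.42 and 10.22 in controls and at 11.09 to 11.51 in treated arrays, 3.30-fold higher (log2 difference 1.72, SE 0.20, adjusted p = 7.17e-08). Abcc4 rose by 1.19 (SE 0.28, adjusted p = 0.00118). The uptake carrier gene Slco1a4 rose by 0.94 (SE 0.26, adjusted p = 0.00454), but its difference was 0.48 without control replicate 4 (adjusted p = 0.0657). Abcg5 and Abcg8, partners in the pump that sends sterols into bile, fell together by 0.72 (SE 0.09, adjusted p = 7.14e-07) and 0.64 (SE 0.11, adjusted p = 4.11e-05).

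**Figure D2:**
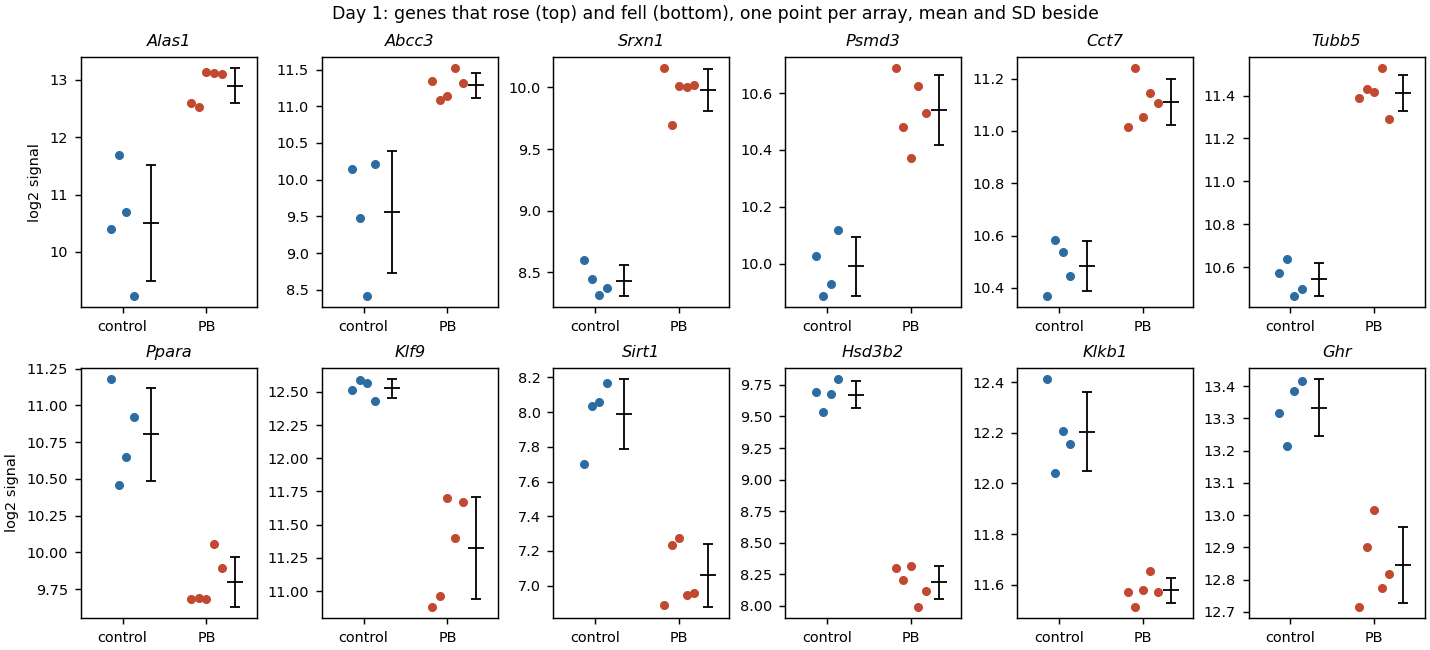
Log2 signal of 12 genes in each of the 4 control (blue) and 5 phenobarbital (PB, red) arrays of day 1, with the mean and SD beside the points. In all 12 panels the treated arrays lie on 1 side of every control, and Alas1, Abcc3 and Ppara show wide controls.

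Genes of the NRF2 antioxidant response rose more often than the background. NRF2 is the transcription factor that answers oxidative and electrophilic stress, and 11 of 20 tested members were higher and 1 lower, with a median of 0.22. Srxn1, which repairs oxidised peroxiredoxins, was at 8.60, 8.44, 8.31 and 8.37 in controls and at 9.69 to 10.15 in treated arrays, and its day 1 effect exceeded the mean of the later effects by 1.05 (adjusted p = 1.94e-07). Thioredoxin reductase Txnrd1 rose by 0.63 (SE 0.06, adjusted p = 2.62e-09), though 2 of its 3 probe sets were not called, and glutathione reductase Gsr by 0.53 (SE 0.08, adjusted p = 7.34e-06). Genes of glutathione synthesis gave no clear direction. Gclc, the catalytic subunit of its limiting enzyme, fell by 0.48 (SE 0.12, adjusted p = 0.00345), but its other probe set differed by 0.11 and the mean of both by -0.18 (adjusted p = 0.145). The regulatory subunit Gclm differed by -0.01 (SE 0.11, adjusted p = 0.975). The transcript of NRF2 itself, Nfe2l2, differed by -0.12 (SE 0.13, adjusted p = 0.507).

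Proteasome subunits formed the most uniform group outside conjugation and the cell cycle. The proteasome degrades ubiquitin-tagged proteins. The list also held assembly factors such as Pomp and Psmd9, which are counted with the subunits throughout. Of 42 tested subunits 30 were higher and 1 lower, with a median difference of 0.26, so the changes were small but shared. Psmd3, of the regulatory lid, was at 10.03, 9.89, 9.93 and 10.12 in controls and at 10.69, 10.48, 10.37, 10.63 and 10.53 in treated arrays, a rise of 0.55 (SE 0.07, adjusted p = 8.55e-07) without overlap. The base ATPase Psmc2 rose by 0.51 (SE 0.06, adjusted p = 2.88e-07), the lid deubiquitinase Psmd14 by 0.46 (SE 0.06, adjusted p = 2.74e-07) and the core subunit Psmb4 by 0.37 (SE 0.05, adjusted p = 1.62e-06). The second probe set of Psmb4 was not called. Lid, base and core each held members that rose, and each held members that were not called, such as Psmd11, Psmc4 and Psma6. The inducible immunoproteasome subunits did not pass the test, with differences of 0.03 for Psmb8 (SE 0.21, adjusted p = 0.927), -0.07 for Psmb9 (SE 0.27, adjusted p = 0.868) and 0.19 for Psmb10 (SE 0.16, adjusted p = 0.38). The member that fell was Psme4, an alternative activator of the core, by 0.17 (SE 0.06, adjusted p = 0.0255), and it lost its call without control replicate 1 or treated replicate 1 (adjusted p = 0.0886 and 0.0956). The higher count was 29 to 31 when any 1 of the 9 arrays was left out.

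The promoters of 3 genes of the proteasome list that rose are shown. Proteasome genes in stressed cells are known to be driven in part through antioxidant response elements. Each line holds the 150 bases before the annotated gene start from RefSeq (build GRCm38.p6), 5′ to 3′ on the gene's strand. Capitals mark the core of that element, TGACNNNGC, found on either strand. Psmb5 lies at chr14:54617996-54618145 on the minus strand, Psmb6 at chr11:70525207-70525356 and Psmd9 at chr5:123228040-123228189, both on the plus strand.
Psmb5: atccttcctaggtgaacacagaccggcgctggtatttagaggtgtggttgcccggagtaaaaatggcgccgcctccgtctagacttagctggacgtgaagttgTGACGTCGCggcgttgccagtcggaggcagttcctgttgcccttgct
Psmb6: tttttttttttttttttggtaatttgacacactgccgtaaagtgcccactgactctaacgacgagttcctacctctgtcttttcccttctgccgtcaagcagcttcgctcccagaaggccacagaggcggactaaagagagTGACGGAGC
Psmd9: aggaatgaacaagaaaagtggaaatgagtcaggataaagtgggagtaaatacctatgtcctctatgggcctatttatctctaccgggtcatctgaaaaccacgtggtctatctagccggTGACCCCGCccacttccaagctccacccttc
These 3 genes rose by 0.41 (Psmb5, SE 0.06, adjusted p = 1.87e-06), 0.40 (Psmb6, SE 0.06, adjusted p = 2.49e-06) and 0.29 (Psmd9, SE 0.08, adjusted p = 0.00405). The other 2 probe sets of Psmd9 were not called, and the mean of its probe sets differed by 0.02 (adjusted p = 0.916). Over windows of 300 bases, from 250 before to 50 after the start, the core was found in 5 of 24 promoters of subunits that rose (20.8%) and in 1504 of 10124 promoters of all tested genes (14.9%). The share was 14.8% among all genes that were higher and 1 of the 10 NRF2 genes that rose held the core. Psme4, the subunit that fell, also held it. Most proteasome genes that rose thus lacked these letters in this window, which says nothing on sites elsewhere.

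Among chaperones of the cytosol and mitochondria more were higher than in the background. Of 34 tested 15 were higher and 1 lower, with a median of 0.29. The subunits of the chaperonin TRiC, which folds actin and tubulin, led the list: Cct7 was at 10.37, 10.58, 10.54 and 10.45 in controls and at 11.01 to 11.24 in treated arrays, a rise of 0.63 (SE 0.09, adjusted p = 2.36e-06), and Tcp1 rose by 0.52 (SE 0.06, adjusted p = 5.72e-08). The HSP90 cochaperones Stip1 and Ahsa1 rose by 0.59 (SE 0.14, adjusted p = 0.00173) and 0.58 (SE 0.10, adjusted p = 5.46e-05), but the mean of the probe sets of Ahsa1 differed by 0.16 and was not called (adjusted p = 0.135). The mitochondrial pair Hspd1 and Hspe1 rose by 0.30 (SE 0.05, adjusted p = 5.95e-05) and 0.32 (SE 0.06, adjusted p = 3.95e-05). The heat-inducible gene Hspa1a differed by 0.45 and did not pass (SE 0.53, adjusted p = 0.539).

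Tubulins, which TRiC folds, were among the higher genes of the cytoskeleton list, in which 6 of 33 were higher and 3 lower. Tubb5 was at 10.57, 10.64, 10.47 and 10.50 in controls and at 11.29 to 11.53 in treated arrays, a rise of 0.87 (SE 0.11, adjusted p = 3.31e-07). Tubb6 rose by 1.06 (SE 0.18, adjusted p = 3.62e-05) and Tubb4b by 0.95 (SE 0.12, adjusted p = 4.9e-07), although 5 of the 6 probe sets of Tubb4b and 1 of the 2 of Tubb6 were not called. For Tubb5 the day 1 effect was 0.83 above the mean of later effects (adjusted p = 1.75e-05).

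Many genes of ribosome assembly and ribosomal proteins were higher and none was lower. Of 49 tested ribosome biogenesis genes 22 were higher and 0 lower (median 0.22), and of 34 cytosolic ribosomal proteins 22 were higher and 0 lower (median 0.16). Nhp2, part of the snoRNA particles that modify ribosomal RNA, was at 9.94, 10.07, 10.16 and 10.03 in controls and at 10.71 to 10.92 in treated arrays, a rise of 0.74 (SE 0.09, adjusted p = 9.63e-08). Mybbp1a rose by 0.54 (SE 0.07, adjusted p = 8.4e-07), fibrillarin (Fbl), the ribosomal RNA methylase, by 0.36 (SE 0.05, adjusted p = 4.53e-06), and Polr1a, the largest subunit of RNA polymerase I, by 0.46 (SE 0.09, adjusted p = 0.000219). Groups did not overlap for any of these 4. For Polr1a, however, 3 of 5 probe sets were not called, and the second brightest differed by -0.24. Rpl4 rose by 0.28 (SE 0.04, adjusted p = 2.12e-06) from a level of 13.42 ± 0.04 (SD, n = 4). Myc, a known driver of such genes, differed by 0.27 and did not pass (SE 0.52, adjusted p = 0.719). The E-box CACGTG, the site that MYC can bind, was found on either strand in 9 of 44 ribosome biogenesis promoters (20.5%) and in 10.2% of all tested promoters. Its share was 10.7% among all genes that were higher and 11.3% among those that were lower. Of the 9 list members with it 5 were higher and 4 were not called. A part of MYC in these rises was not tested.

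Genes that supply building blocks gave mixed results. Of 19 tRNA synthetases 6 were higher and 0 lower, but only 3 without control replicate 4, and Vars, for valine, rose by 0.76 (SE 0.10, adjusted p = 5.77e-07). Spermidine synthase Srm was at 9.60, 9.75, 9.40 and 9.77 in controls and at 10.36 to 10.76 in treated arrays, a rise of 0.97 (SE 0.18, adjusted p = 0.000117). Odc1, which starts polyamine synthesis, differed by 0.25 (SE 0.14, adjusted p = 0.181), but its other 2 probe sets were called higher, at 0.45 and 0.47. The mitochondrial one-carbon enzymes Shmt2 and Mthfd2 rose by 0.61 (SE 0.10, adjusted p = 1.57e-05) and 0.54 (SE 0.12, adjusted p = 0.000591), the latter not called with its probe sets averaged (adjusted p = 0.052). The taurine enzyme Csad, of the same list, fell by 1.09 (SE 0.27, adjusted p = 0.00195). In that list of methionine, taurine and one-carbon metabolism 3 of 33 were higher and 9 lower, or 3 and 4 with arrays median-centred. The lowest member of the list as used was Nox4 (-1.86), an NADPH oxidase described below. The lower count is thus not made up of enzymes of this metabolism alone.

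**Figure D3:**
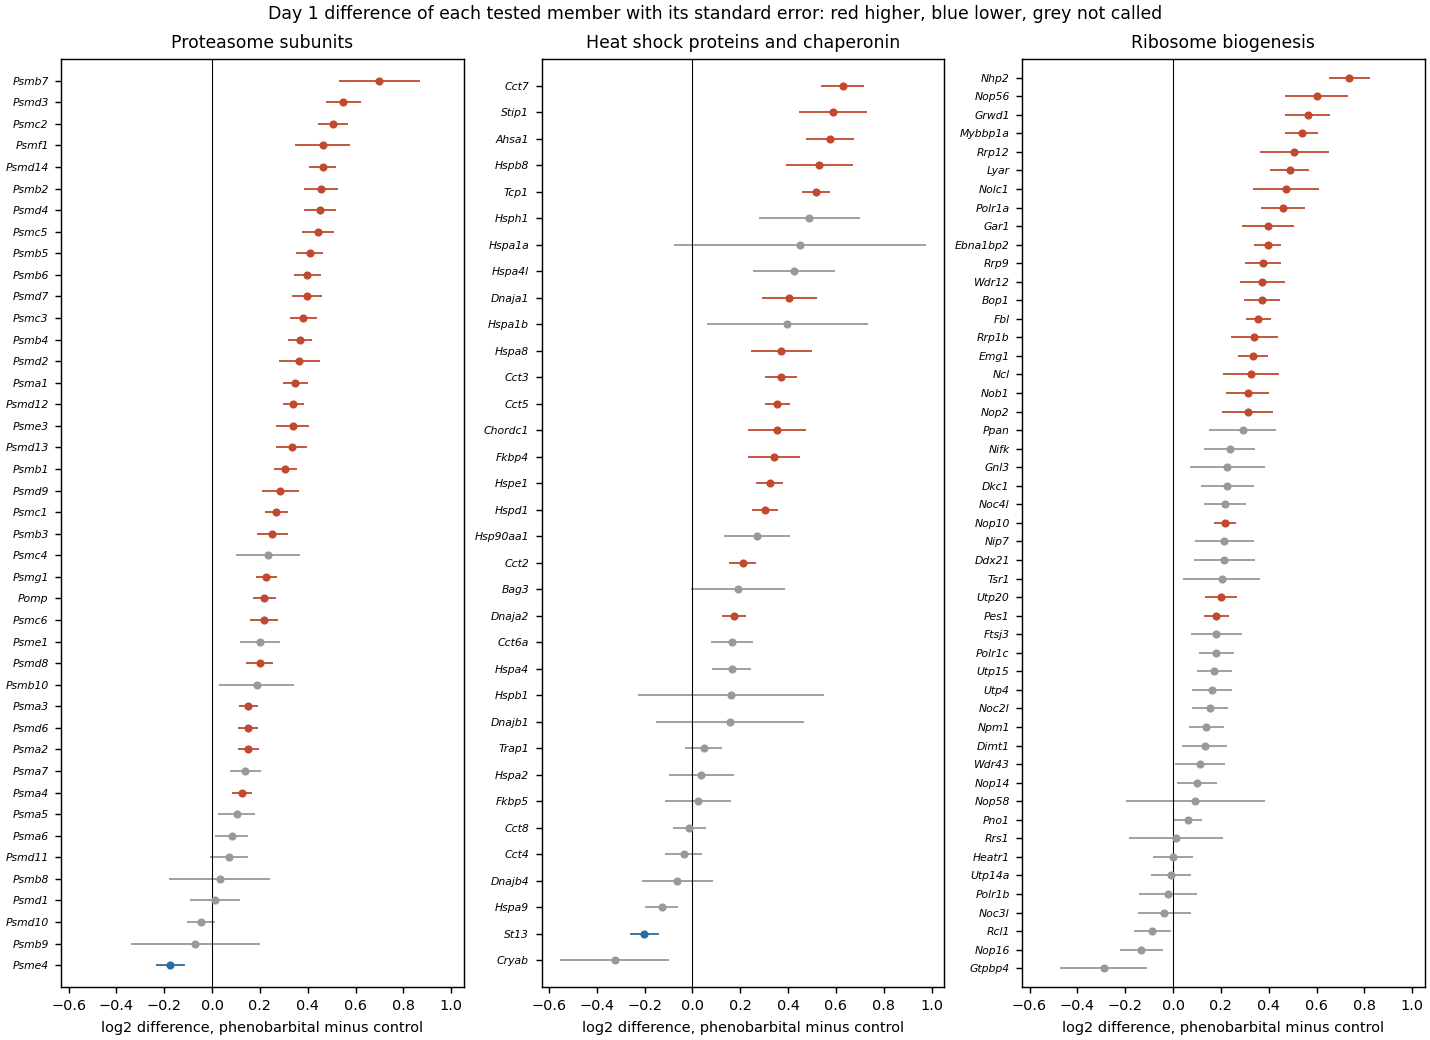
Log2 difference (phenobarbital minus control, with SE) of each tested proteasome subunit, cytosolic or mitochondrial heat shock protein and ribosome biogenesis gene at day 1, coloured by call. Red points (30 of 42, 15 of 34 and 22 of 49) lie to the right of 0 and few reach 0.7, and 1 proteasome subunit and 1 heat shock protein are blue.

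The list of endoplasmic reticulum chaperones and unfolded protein response genes held more lower than higher members. The endoplasmic reticulum carries the P450s and enlarges under phenobarbital. Of 43 tested genes of this list 3 were higher and 10 lower, with a median of -0.05. Without control replicate 1 the counts were 4 and 4. Several of the lower genes, such as Derl2, Eif2ak3, Creb3l2 and Herpud1, are not chaperones, and the folding proteins Calr, Pdia3 and Pdia4 were not called. Hspa5 (BiP), the main luminal chaperone, differed by -0.23 (SE 0.11, adjusted p = 0.114) and Hsp90b1 by -0.21 (SE 0.12, adjusted p = 0.162), while a second probe set of Hsp90b1 was called lower at -0.56. Canx, which holds newly made glycoproteins, fell by 0.29 (SE 0.07, adjusted p = 0.00118), and Dnajc3, a cochaperone of BiP, by 0.52 (SE 0.17, adjusted p = 0.0161), with adjusted p = 0.0541 and 0.0504 without control replicate 1 or 2. The stress targets Chac1 and Trib3 went opposite ways: Chac1 fell by 1.11 (SE 0.31, adjusted p = 0.00522) and Trib3 rose by 0.76 (SE 0.19, adjusted p = 0.00268).

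The promoters of Hspa5, Canx and Dnajc3 are shown since each carries the ER stress response element, which answers unfolded proteins. Capitals mark that element in the 150 bases before the start, again from RefSeq build GRCm38.p6. Hspa5 lies at chr2:34771940-34772089 and Dnajc3 at chr14:118937782-118937931 on the plus strand, and Canx at chr11:50325674-50325823 on the minus strand.
Hspa5: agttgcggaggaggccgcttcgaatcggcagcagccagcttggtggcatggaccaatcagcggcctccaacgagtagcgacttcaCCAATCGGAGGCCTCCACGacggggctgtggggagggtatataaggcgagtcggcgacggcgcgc
Canx: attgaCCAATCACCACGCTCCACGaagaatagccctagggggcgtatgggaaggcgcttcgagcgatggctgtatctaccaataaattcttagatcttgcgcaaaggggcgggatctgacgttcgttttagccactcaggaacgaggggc
Dnajc3: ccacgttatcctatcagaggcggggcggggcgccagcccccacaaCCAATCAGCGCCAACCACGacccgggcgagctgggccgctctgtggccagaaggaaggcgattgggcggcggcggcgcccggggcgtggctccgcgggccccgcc
Over the 300-base windows the element was found in 10 of 38 promoters of this list (26.3%) and in 17 of 10124 of all tested genes (0.168%). Of the 10 list members with it 0 rose, 3 fell and 7 were not called, with differences between -0.52 and 0.14.

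Receptors and coregulators of the liver's nuclear receptor network were more often lower than higher, with 3 of 38 higher and 9 lower (8 and 6 after quantile normalization, 6 and 8 without treated replicate 3 or 4). Nr1i3, which encodes CAR, was at 9.54 to 9.70 in controls and at 9.72 to 10.31 in treated arrays, a difference of 0.31 that did not pass (SE 0.13, adjusted p = 0.0578). Nr1i2, which encodes the related xenobiotic receptor PXR, rose by 0.37 (SE 0.11, adjusted p = 0.00923). Ppara, the receptor that turns on fatty acid oxidation in fasting, was at 11.18, 10.46, 10.65 and 10.92 in controls and at 9.68, 9.69, 9.68, 10.06 and 9.89 in treated arrays. It fell by 1.00 (SE 0.12, adjusted p = 2.44e-07) without overlap. The glucocorticoid receptor gene Nr3c1 fell by 0.40 (SE 0.08, adjusted p = 0.000296), and Pparg rose by 0.56 (SE 0.18, adjusted p = 0.0156), or 0.49 without control replicate 4 (adjusted p = 0.0549). Hnf4a, Rxra and Nr1h4 differed by -0.05, -0.08 and 0.02 and did not pass (adjusted p = 0.594, 0.588 and 0.911).

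Among growth signalling genes more were lower than higher, and most were not called. Of 41 immediate early and growth signalling genes 3 were higher and 12 lower, or 2 and 7 without control replicate 3. Klf9, a hormone-responsive transcription factor, was at 12.52, 12.59, 12.57 and 12.43 in controls and at 10.88, 10.96, 11.70, 11.40 and 11.67 in treated arrays, and fell by 1.20 (SE 0.20, adjusted p = 3.03e-05). The hepatocyte growth factor receptor gene Met fell by 0.45 (SE 0.10, adjusted p = 0.00049), the RNA-decay factor Zfp36l1 by 0.63 (SE 0.17, adjusted p = 0.00366) and the antiproliferative gene Btg2 by 0.80 (SE 0.19, adjusted p = 0.00139). Egfr, whose product phenobarbital is known to block, was at 12.56, 12.31, 12.94 and 11.91 in controls and at 9.30, 11.73, 12.17, 11.84 and 11.76 in treated arrays. It fell by 1.07 (SE 0.40, adjusted p = 0.0393) with overlap and was lowest in treated replicate 1. Without that array its difference was -0.55 (adjusted p = 0.218), and without control replicate 1, 2 or 3 the call was lost as well (adjusted p = 0.0792, 0.059 and 0.128). Gadd45b, a growth-arrest and stress gene known as a CAR target, was at 6.98 to 7.39 in controls and at 9.24 to 10.28 in treated arrays, with a wide gap between the groups. Its relative Gadd45a rose by 1.01 (SE 0.35, adjusted p = 0.0268) with overlap, a call lost without control replicate 2, 3 or 4 or treated replicate 4 or 5 (adjusted p = 0.0568 to 0.0908), and the p53 target Cdkn1a differed by 0.67 (SE 0.31, adjusted p = 0.0902).

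Apoptosis genes were lower more often than higher, with 2 of 24 higher and 8 lower (4 and 6 after quantile normalization, 1 and 5 without treated replicate 1). Bmf, which promotes cell death by binding BCL2 proteins, was at 7.08, 6.39, 6.37 and 6.90 in controls and at 5.12 to 5.57 in treated arrays, and fell by 1.34 (SE 0.20, adjusted p = 4.04e-06), though 2 of its 3 probe sets were not called. Bcl2, which protects from cell death, rose by 0.39 (SE 0.09, adjusted p = 0.00168), but 4 of its 5 probe sets were not called. Xiap, an inhibitor of caspases, fell by 0.51 (SE 0.07, adjusted p = 1.19e-06). Members that promote and members that restrain cell death thus both fell.

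Some fasting genes fell and none rose. The liver's fasting programme makes glucose and burns fat, and of 24 tested genes 0 were higher and 9 lower, with a median of -0.32. Sirt1, a deacetylase active in fasting, was at 7.70, 8.03, 8.06 and 8.17 in controls and at 6.89, 7.23, 7.27, 6.95 and 6.96 in treated arrays, and fell by 0.93 (SE 0.14, adjusted p = 3.91e-06). Foxo3 fell by 0.77 (SE 0.13, adjusted p = 2.74e-05), the insulin receptor substrate Irs2 by 0.88 (SE 0.24, adjusted p = 0.00518) and the alanine transaminase Gpt2 by 0.40 (SE 0.08, adjusted p = 0.000438). The coactivator Ppargc1a was at 8.27 to 8.40 in controls and at 6.73 to 7.33 in treated arrays. Its main gluconeogenic targets did not pass, with differences of -0.68 for Pck1 (SE 0.34, adjusted p = 0.125) and -0.15 for G6pc (SE 0.25, adjusted p = 0.675), though 1 of 3 probe sets of Pck1 was called lower. Regulators thus fell, and these enzymes of glucose output were not called by their brightest probe sets.

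Fatty acid oxidation and peroxisomal genes pointed the same way. Of 34 PPARA targets and oxidation genes 0 were higher and 9 lower (median -0.16), and of 24 peroxisome genes 1 was higher and 11 lower (median -0.15, or 4 and 10 with arrays median-centred). Leaving out 1 array gave 6 to 10 lower in the PPARA list. This list and the fasting list are not independent, as Fgf21 was the lowest member of both. The mitochondrial dehydrogenase Etfdh fell by 0.36 (SE 0.05, adjusted p = 5.09e-06) and the carnitine carrier Slc25a20 by 0.46 (SE 0.08, adjusted p = 7.84e-05). Pex11a, which divides peroxisomes and is a PPARA target, fell by 0.64 (SE 0.13, adjusted p = 0.000184), urate oxidase Uox by 0.38 (SE 0.04, adjusted p = 8.22e-08) and the catalase gene was also among those that fell. Cpt1a, the gate of mitochondrial oxidation, fell by 0.42 (SE 0.13, adjusted p = 0.0156) with overlap, and differed by -0.26 without control replicate 1 (adjusted p = 0.137).

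Lipid synthesis gave no common direction. Srebf1, the transcription factor of lipogenesis, fell by 0.72 (SE 0.18, adjusted p = 0.00179), while its target Fasn differed by 0.08 (SE 0.23, adjusted p = 0.811). In the fatty acid synthesis list 5 of 26 were higher and 3 lower, and leaving out 1 array gave 2 to 5 higher. In cholesterol synthesis 7 of 24 were higher and 3 lower, but 2 and 4 without control replicate 1, so no direction held. Genes of lipid export fell in part, 5 of 20 lower and 0 higher. Scarb1, the receptor for high-density lipoprotein, was at 10.55 to 11.09 in controls and at 9.93 to 10.06 in treated arrays, and fell by 0.89 (SE 0.12, adjusted p = 8.8e-07). Without probe sets that match several transcripts Scarb1 differed by -0.29 and was not called (adjusted p = 0.156). Abca1, which loads cholesterol onto such particles, fell by 0.53 (SE 0.07, adjusted p = 8.55e-07) and Apob by 0.21 (SE 0.04, adjusted p = 0.000391), whereas Apoa1 differed by 0.02 (SE 0.02, adjusted p = 0.632).

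Bile acid genes were lower in 7 of 22 and higher in 0. The 7 were Amacr, Baat, Cyp7b1, Scp2, Slc27a2, Slc27a5 and Fgfr4. Amacr, of side-chain oxidation, fell by 0.27 (SE 0.06, adjusted p = 0.00106) and Baat, which conjugates bile acids, by 0.25 (SE 0.06, adjusted p = 0.00284). Without probe sets that match several transcripts Baat differed by -0.11 (adjusted p = 0.321). Cyp7a1, the rate-limiting enzyme of bile acid synthesis, differed by 0.34 (SE 0.39, adjusted p = 0.528).

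Steroid, thyroid and growth hormone genes hold some of the largest falls, and several of them also varied widely among controls. Hsd3b2, a 3β-hydroxysteroid dehydrogenase, was at 9.69, 9.53, 9.68 and 9.80 in controls and at 8.30, 8.21, 8.31, 7.99 and 8.12 in treated arrays. Its relative Hsd3b5, which is strongly male-biased and appears at puberty, was at 12.58, 9.20, 11.37 and 13.02 in controls and at 8.50, 8.48, 10.19, 10.40 and 9.73 in treated arrays. Hsd3b5 fell by 2.08 (SE 0.64, adjusted p = 0.0122) with overlap, as control replicate 2 lay within the treated range. Its call was lost without control replicate 1 or 4 (adjusted p = 0.0565 and 0.0746). Hsd3b2 in contrast showed little spread in either group. The estrogen-oxidising enzyme Hsd17b2 rose by 0.47 (SE 0.08, adjusted p = 2.59e-05) and Serpina6, the carrier of glucocorticoids in blood, by 0.59 (SE 0.14, adjusted p = 0.00209). Of 17 steroid metabolism genes 5 were higher and 8 lower, or 2 and 5 without control replicate 1.

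Serpina7 encodes thyroxine-binding globulin, and it was at 8.77, 9.52, 9.31 and 8.43 in controls and at 6.46, 7.99, 7.34, 7.23 and 7.17 in treated arrays. Its groups did not overlap. Dio1, the deiodinase that activates and clears thyroid hormone, rose by 0.80 (SE 0.16, adjusted p = 0.000231), and Thrsp, a thyroid hormone target, by 0.51 (SE 0.20, adjusted p = 0.0454). Thrsp lost its call without control replicate 1 or 3 or treated replicate 1, 2 or 3 (adjusted p = 0.0723 to 0.165). Klf9, given above, is also a thyroid hormone target and fell. The 13 tested genes of this list had 3 higher and 2 lower, or 5 and 2 with arrays median-centred.

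The growth hormone receptor gene Ghr was at 13.22 to 13.42 in controls and at 12.72 to 13.02 in treated arrays, and fell by 0.49 (SE 0.06, adjusted p = 3.99e-07) without overlap. Of 26 growth hormone axis and male-biased genes 6 were lower and 0 higher, with a median of -0.51. That count was 3 without control replicate 1 or 4 and 11 without control replicate 2. The feedback inhibitor Socs2 differed by -1.62 (SE 0.75, adjusted p = 0.0941) and did not pass. Slco1a1, a male-biased uptake carrier, fell by 1.22 (SE 0.47, adjusted p = 0.0425) with overlap, and lost its call without control replicate 1, 3 or 4 or treated replicate 1, 2 or 5 (adjusted p = 0.0522 to 0.203). Sult2a2, which is female-biased, was at 8.53, 13.82, 12.73 and 4.31 in controls and at 12.79 to 13.49 in treated arrays, and its difference of 3.31 did not pass (SE 1.33, adjusted p = 0.0532). Control replicates 2 and 3 thus had the female-biased gene high, and the same arrays were the lower 2 for Hsd3b5. The part of this spread among controls in the falls and rises of sex-biased genes, Sult3a1 included, was not tested.

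**Figure D4:**
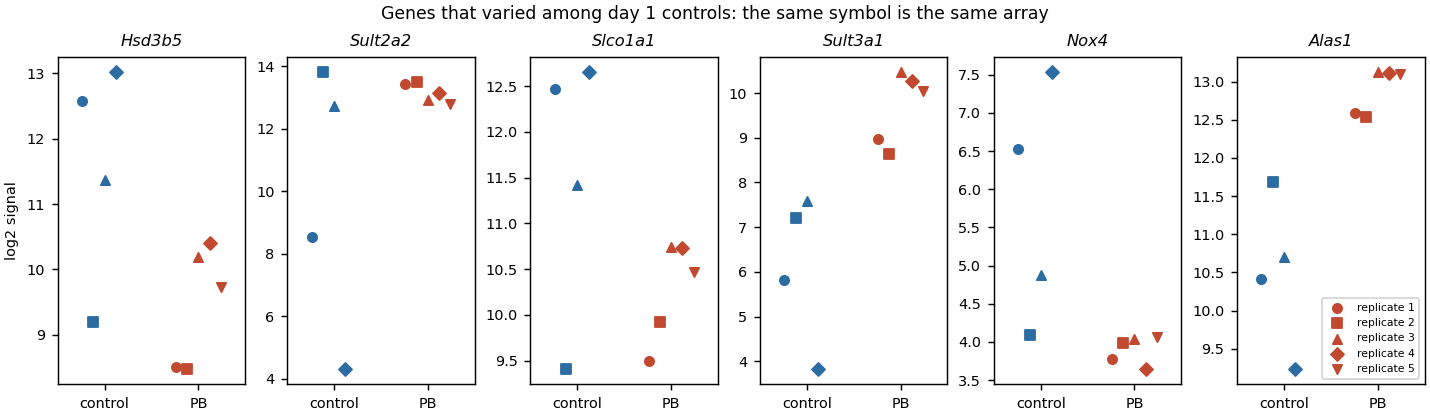
Log2 signal of 6 genes in each control (blue) and phenobarbital (PB, red) array of day 1, with 1 symbol per replicate number within a group. Controls span 4.31 to 13.82 for Sult2a2 and 9.20 to 13.02 for Hsd3b5, and Nox4 lies near 4 in all treated arrays.

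Among secreted proteins of the complement and clotting systems more were lower than higher, by small amounts. Of 45 acute phase and complement genes 2 were higher and 15 lower, with a median of -0.12, and of 26 coagulation genes 1 was higher and 8 lower, with a median of -0.06. Klkb1, which encodes plasma prekallikrein, was at 12.41, 12.04, 12.21 and 12.15 in controls and at 11.57, 11.51, 11.58, 11.66 and 11.57 in treated arrays. It fell by 0.63 (SE 0.06, adjusted p = 5.27e-09), with the treated arrays nearly identical. Coagulation factor F5 fell by 0.40 (SE 0.06, adjusted p = 6.59e-06), the complement gene C8a by 0.47 (SE 0.10, adjusted p = 0.000503), the lectin pathway protease Masp1 by 0.29 (SE 0.06, adjusted p = 0.000243) and Saa4, which is made constitutively, by 0.67 (SE 0.13, adjusted p = 0.000128). Il6ra, the receptor subunit for the cytokine that drives the acute phase, was at 8.66 to 9.53 in controls and at 7.35 to 7.99 in treated arrays, and fell by 1.42 (SE 0.34, adjusted p = 0.00155). The inducible acute phase gene Saa1 differed by -0.24 (SE 0.49, adjusted p = 0.745) and Orm3 rose by 0.76 (SE 0.19, adjusted p = 0.00207).

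Iron genes changed in a few members, with 3 of 20 higher and 7 lower (3 and 4 with arrays median-centred). The transferrin receptor gene Tfrc rose by 1.08 (SE 0.21, adjusted p = 0.000141), although 2 of its 3 probe sets were not called, and its partner Hfe rose by 0.49 (SE 0.07, adjusted p = 5.18e-06). The iron hormone gene Hamp differed by -0.62 (SE 0.36, adjusted p = 0.186).

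Zonation genes of both sides of the lobule held more lower than higher members. WNT signalling keeps the pericentral zone, where phenobarbital acts first, and 11 of 25 WNT targets and pericentral genes were lower and 2 higher (7 and 5 with arrays median-centred, 7 and 1 without treated replicate 1). Lgr5, the receptor for the WNT amplifier R-spondin, was at 7.75, 7.26, 7.01 and 6.91 in controls and at 5.62 to 6.30 in treated arrays. It fell by 1.13 (SE 0.20, adjusted p = 5.71e-05), but its other probe set rose by 0.37, so the gene's direction is uncertain. The glutamate transporter Slc1a2 fell by 0.96 (SE 0.20, adjusted p = 0.000361), with 2 of 5 probe sets called, R-spondin 3 (Rspo3) by 0.47 (SE 0.14, adjusted p = 0.00893; -0.19 and adjusted p = 0.0816 for the mean of its probe sets) and glutamine synthetase Glul by 0.32 (SE 0.07, adjusted p = 0.000765). The WNT feedback genes Axin2 and Notum differed by -0.01 and -0.09 and did not pass (adjusted p = 0.957 and 0.638), but the second probe set of Axin2 was called higher at 0.27. Of 16 periportal genes 6 were lower and 0 higher.

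Nitrogen handling, the main periportal task, was lower in 9 of 18 genes and higher in 2. Glud1, which releases ammonia from glutamate, was at 13.37 to 13.45 in controls and at 12.92 to 13.22 in treated arrays, and fell by 0.39 (SE 0.04, adjusted p = 1.88e-08). Otc fell by 0.24 (SE 0.05, adjusted p = 0.000138). The arginine carrier Slc7a2 fell by 0.51 (SE 0.14, adjusted p = 0.0066). Asl, which splits argininosuccinate, and Nags, which makes the activator of the cycle, rose by 0.39 (SE 0.09, adjusted p = 0.0012) and 0.38 (SE 0.09, adjusted p = 0.00142), so the cycle's enzymes did not move as 1 unit.

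Among the larger falls were regulators and nuclear RNAs. Ceacam1, a cell adhesion protein that aids insulin clearance, was at 11.65, 11.71, 11.79 and 11.95 in controls and at 10.27, 10.27, 10.18, 9.88 and 11.07 in treated arrays, and fell by 1.44 (SE 0.22, adjusted p = 8.06e-06). All 8 probe sets of Ceacam1 were called lower, but a nearly equally bright one differed by only -0.22. The size of its fall is therefore uncertain. Prox1, a transcription factor of hepatocyte identity, fell by 1.44 (SE 0.31, adjusted p = 0.000616), with 1 of its 3 probe sets not called, and Klf10 by 1.44 (SE 0.34, adjusted p = 0.00146). The long nuclear RNA Malat1 was at 13.06 to 13.30 in controls and at 11.69 to 12.67 in treated arrays, and fell by 1.05 (SE 0.24, adjusted p = 0.0011). The splicing factors Rbm25 and Pnisr, whose products sit in the same nuclear speckles as Malat1, fell by 0.92 (SE 0.20, adjusted p = 0.000518) and 0.63 (SE 0.12, adjusted p = 0.00016), whereas the splicing repressor Ptbp1 rose by 0.53 (SE 0.10, adjusted p = 0.000218), with 1 of 3 probe sets called. Of 48 genes in the list of splicing factors, which also held the non-coding Malat1, 11 were higher and 6 lower. When each gene's probe sets were averaged 10 were higher and 14 lower, so the direction of this list depends on the probe sets.

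The other members of the 15 largest falls were of varied kinds. Gprin3 was at 7.10 to 7.65 in controls and at 5.51 to 5.91 in treated arrays, and the fasting hormone gene Fgf21 at 6.50 to 8.52 and 5.59 to 6.09. Neither gene's groups overlapped. Hectd2os fell by 2.02 (SE 0.44, adjusted p = 0.000583), the protease inhibitor gene Serpina9 fell by 1.93 (SE 0.37, adjusted p = 0.000155), Gdap10 fell by 1.68 (SE 0.29, adjusted p = 4.03e-05), Neb, the giant muscle protein nebulin, fell by 1.55 (SE 0.29, adjusted p = 0.000117) and the galactosyltransferase B3galt1 fell by 1.51 (SE 0.35, adjusted p = 0.0011). Nox4, an NADPH oxidase that makes hydrogen peroxide, was at 6.53, 4.09, 4.88 and 7.54 in controls and at 3.64 to 4.07 in treated arrays. All treated values of Nox4 lay below the lower quartile of the arrays, which was 4.39 to 4.45, so that although it fell by 1.86 (SE 0.57, adjusted p = 0.0115) the size is poorly determined, and it differed by -1.26 without control replicate 4 (adjusted p = 0.0947).

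DNA methylation enzymes changed in both directions, with 6 of 13 higher and 4 lower (6 and 2 with arrays median-centred). Uhrf1, which guides maintenance methylation to new DNA, was at 5.62, 6.19, 5.63 and 5.31 in controls and at 7.20 to 7.44 in treated arrays, a rise of 1.62 (SE 0.16, adjusted p = 4.94e-09), and the maintenance enzyme Dnmt1 rose by 0.64 (SE 0.10, adjusted p = 1.35e-05). The de novo enzyme Dnmt3a fell by 0.40 (SE 0.10, adjusted p = 0.00189) and the demethylating oxidase Tet2 by 0.32 (SE 0.10, adjusted p = 0.0196), the latter with adjusted p = 0.152, 0.0759 and 0.0547 without control replicate 2, control replicate 3 or treated replicate 4.

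Several lists stayed near the background. Oxidative phosphorylation subunits had 7 of 70 higher and 12 lower, or 13 and 7 with arrays median-centred, and leaving out 1 array gave 3 to 11 higher. Circadian genes had 3 of 23 higher and 2 lower: the core members Arntl, Per1 and Nr1d1 differed by -0.08, -0.05 and 0.08 and did not pass (adjusted p = 0.759, 0.923 and 0.783), though a second probe set of Arntl was called lower at -0.37, and Wee1, a cell-cycle kinase under clock control, rose by 0.63 (SE 0.14, adjusted p = 0.00104). Glycolysis had 4 of 24 in each direction, and drug transporters were likewise balanced. Interferon response genes had 0 of 33 higher, below the background, and 4 lower, or 1 lower without control replicate 4.

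The day 1 effect was tested against the mean effect of days 7, 28 and 91. This compares sizes and does not show whether a change was absent later. Over all genes the day 1 effect was higher in 13.1% of genes and lower in 6.87%, as counts 1643 and 864. With the spike-in signal as a covariate these counts were 903 and 274, and without treated replicate 1 the lower count was 563. Of 49 ribosome biogenesis genes 25 had a higher effect at day 1 and 0 a lower one, as had 20 and 0 of 34 ribosomal proteins, 19 and 1 of 42 proteasome subunits, 8 and 1 of 34 heat shock proteins and 8 and 1 of 20 NRF2 genes. The largest differences were in cell-cycle genes, Pbk (2.37, SE 0.35, adjusted p = 1.63e-05), Rrm2 (1.86, SE 0.41, adjusted p = 0.00144), Aurkb (1.83, SE 0.33, adjusted p = 0.000217), Birc5 (1.76, SE 0.51, adjusted p = 0.014), Ube2c (1.74, SE 0.42, adjusted p = 0.00389) and Tcf19 (1.69, SE 0.27, adjusted p = 4.09e-05). Day 1 control replicate 4 was far below the other controls for Pbk (6.29 against 7.93 to 8.17), Birc5 (6.26 against 8.75 to 8.93) and Ube2c (6.74 against 8.73 to 9.13). Without that array the day 1 difference of Birc5 was 0.86 and was not called (limma, adjusted p = 0.114). Glutathione transferases had only 2 of 19 higher and 1 lower in this test. Some of these lists were also raised at later days. At day 7 16 of 42 proteasome subunits, 3 of 34 heat shock proteins and 8 of 20 NRF2 genes were called higher. At day 28 these counts were 19, 17 and 8, and 6 of 49 ribosome biogenesis genes were higher. Of all tested genes 5.64% were higher at day 7 and 11.2% at day 28.

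At the other end stood genes whose effect was smaller on the first day than later. The day 1 effect minus the later mean was -4.92 for Cyp2c65 (SE 0.39, adjusted p = 9.38e-11), -2.69 for Nebl (SE 0.19, adjusted p = 5.7e-12), -2.37 for Gm10419 (SE 0.27, adjusted p = 2.28e-07), -2.31 for the imprinted non-coding RNA Rian (SE 0.33, adjusted p = 9.85e-06), -2.04 for its neighbour Meg3 (SE 0.23, adjusted p = 2.23e-07) and -1.66 for the protease inhibitor Serpinb1a (SE 0.23, adjusted p = 6.26e-06). At day 1 Cyp2c65 was already higher, by 1.06 (adjusted p = 0.0176) and without overlap. Its signals were dim, at 3.87 to 4.18 in controls and 4.47 to 5.47 in treated arrays, so the size is poorly determined. All day 1 values of Cyp2c65, Nebl and Gm10419 lay below the array medians, the lowest of which was 5.70. Cyp2c65, Nebl and Gm10419 were therefore tested only because of brighter arrays at later days. The day 1 means of Rian (4.89) and Serpinb1a (5.36) also lay below 5.70, so both may have passed the filter in the same way. The p-values of these dim genes in this test are thus not independent of the filter. Nebl differed by 0.15, Gm10419 by 0.51, Rian by -0.42, Meg3 by -0.19 and Serpinb1a by 0.03 at day 1, and none of these 5 was called.

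The early falls were shared with day 28 far more than with the times on either side. Of the 2106 genes lower at day 1, 1257 were also lower at day 28, which is 59.7% of the early set and 55.2% of the day 28 set, and 18.1% of all tested genes were lower at day 28. Only 16.5% of the early set was lower at day 7 and 12.8% at day 91, where 11.4% and 16.1% of all genes were. Of the 1982 early rises 40.4% were also higher at day 28, 15.1% at day 7 and 10.7% at day 91, against 11.2%, 5.64% and 4.62% of all genes. In the opposite direction, 135 of these 1982 rises were called lower at day 7, 36 at day 28 and 261 at day 91. Of all genes 11.4%, 18.1% and 16.1% were called lower at these times. The share of early rises called lower was thus below that of all genes each time. At day 91 213 of the rises were called higher, or 10.7% against 4.62% of all genes. Each time had its own controls. Ttc14, Taok3, Malat1 and Prox1 show the pattern in single genes: Ttc14 differed by -1.36 at day 1, 0.06 at day 7, -1.10 at day 28 and 0.52 at day 91, and Taok3 by -1.28, 0.04, -1.22 and 0.07. The 3' minus 5' difference of control transcripts moved alike, lower in treated arrays at day 1 (means 0.45 against 0.54) and at day 28 (0.46 against 0.66), nearly equal at day 7 (0.44 against 0.46) and higher at day 91 (0.62 against 0.57). Fitting that difference as a covariate left 1629 genes higher and 1720 lower at day 1. The overlap with day 28 was not recounted in that fit. Whether this measure has a part in the sharing with day 28 was not tested.

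**Figure D5:**
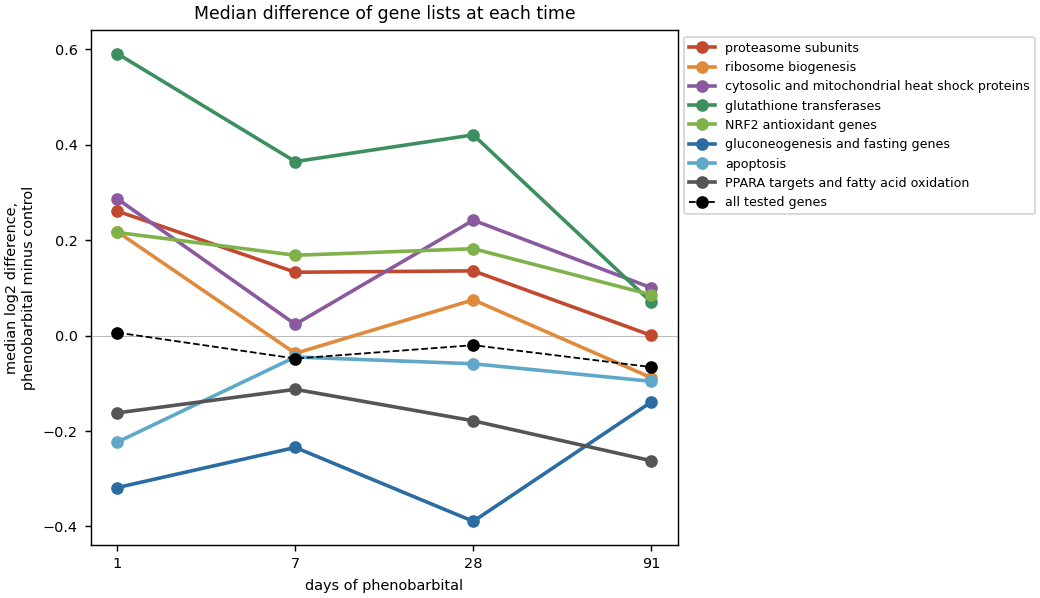
Median log2 difference (phenobarbital minus control) of 8 gene lists and of all tested genes (dashed) at 1, 7, 28 and 91 days, with points in order of time and not to scale. Proteasome and ribosome biogenesis lists are highest at day 1 (0.26 and 0.22), and heat shock proteins are high at days 1 and 28 (0.29 and 0.24).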

How the data were processed

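Per the labels' protocols, biotin-labelled RNA was hybridised to Affymetrix arrays, and GCOS is named in the submitters' processing notes. The authors deposited log2 signals, and their normalization is not given in the sources used here. All 39 sample columns were used (0 unused). Of 45101 probe sets 34958 had 1 gene symbol, 932 several and 9211 none, which left 18193 genes. A gene was tested if its brightest probe set exceeded the array median on at least 4 arrays. Limma 3.58.1 in R 4.3.3 fitted 1 mean per group over all arrays, with a variance trend and Benjamini-Hochberg adjustment over 12580 genes. The method was tested on simulated data. The 61 gene lists and the comparison itself were chosen with earlier results of these data known. Named genes were the 15 largest called rises and falls with groups apart, outside P450 and cell-cycle lists, up to 5 called members of each list by p, other main members by value, the 6 highest and lowest differences from later effects, and a set of known targets. Not every gene under this rule is printed. Alternatives covered scaling, filters, probe sets, variance models, covariates and each array left out. The number of arrays limits the precision.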

Additional observations from a re-analysis of the deposited data

Results flagged for a closer look

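Among 390 groups of day 1 values for named genes and 122 for list means, 29 held 1 array far from the rest of its group by Dixon's criterion, and chance gives about 1 in 20. Control replicate 4 was low for proliferation genes, with Mki67 at 6.76, Pbk at 6.29, Birc5 at 6.26, Ube2c at 6.74 and the mean of the mitosis list at 6.19. It was also lowest for the hepatocyte marker mean, at 14.20, and for Serpinb1a, at 5.16. Treated replicate 3 had the pancreas marker mean of 10.49 and Pnliprp1 at 10.11. In the same array Cnmd was at 8.004, Lgr5 at 5.62, Hamp at 10.47, Nebl at 4.25, Nr3c1 at 9.95, the glutathione transferase mean at 11.82, the cholesterol synthesis mean at 11.57 and the apolipoprotein mean at 12.09.

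Treated replicate 1 stood apart with Egfr at 9.30, Canx at 12.04, Gsr at 10.07 and Trib3 at 7.99. Control replicate 1 did so with Trib3 at 7.15, Nr3c1 at 10.03, Etfdh at 12.35 and the circadian list mean at 8.08. Control replicate 2 was low for Xiap, at 11.06, and for the erythroid marker mean, at 6.32. Control replicate 3 was low for Slc25a20, at 11.35, and for Hamp, at 12.03.

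The day 1 effect differed from the mean later effect in many genes by limma's contrast of the effects, with 1643 genes higher and 864 lower at day 1. The highest differences were 2.37 for Pbk, 1.86 for Rrm2, 1.83 for Aurkb, 1.76 for Birc5, 1.74 for Ube2c and 1.69 for Tcf19. The lowest were -4.92 for Cyp2c65, -2.69 for Nebl, -2.37 for Gm10419, -2.31 for Rian, -2.04 for Meg3 and -1.66 for Serpinb1a.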

How the results depend on the processing

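At day 1 the main setting called 1982 genes higher and 2106 lower, and higher genes made up 48.5% of calls. That share was 62.4% after quantile normalization (2830 and 1705) and 63% with arrays centred on their median (2683 and 1579), settings that moved the median of all genes from 0.01 to 0.06 and 0.05. Leaving out 1 array gave 1687 to 2059 higher and 1686 to 2077 lower. For the day 1 effect against later effects the spike-in covariate reduced the counts from 1643 to 903 higher and from 864 to 274 lower, and leaving out 1 array gave 1318 to 1775 higher and 563 to 958 lower, the lowest without treated replicate 1. The cause was not tested. Of 160 named genes with a call 137 kept direction and call under every alternative that gave a value, and 0 of 4070 comparisons of a named gene with an alternative reversed a called direction. Birc5 was called at day 1 but not without control replicate 4 (0.86, adjusted p = 0.114). No paired analysis was possible because the labels carry no replicate numbers, and numbers here follow the order of accession. The number of arrays and the dim signal of genes such as Nox4 limit what could be detected.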
